A study of Arabidopsis thaliana with 4 samples.

Results

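Of 1984 Arabidopsis thaliana genes listed with seedling transcript levels in Col-0 and ndx1-4, 112 were abundant and slightly lower in the mutant. They were chosen by their measured values: a mean of at least 200 FPKM over the 4 libraries, and a Col-0 mean above the ndx1-4 mean by less than 2-fold. FPKM, fragments per kilobase of transcript per unit of sequencing, is a level scaled to transcript length and sequencing amount, so levels of different genes can be compared. Because the genotype contrast chose the members, their differences are given as a description and no test of them was made. All 1984 genes had already been called as differing between the genotypes by the study's authors, so genes without a call are not part of the comparison.

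The study asked which transcripts differ when NODULIN HOMEOBOX (NDX) is disrupted. Col-0 is the wild type, and ndx1-4 carries the T-DNA insertion WiscDsLox344A04 in the NDX gene in the same accession. Seedlings of both genotypes were 10 days old, mRNA was sequenced as single-end reads of 50 bases on a MiSeq instrument, and each genotype had 2 libraries. The mutant is 1 insertion line and no complemented line is among the samples.

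NDX is a plant homeobox protein that binds chromatin and has been linked to gene repression, to abscisic acid responses and to heterochromatin. In a green seedling a small set of genes supplies much of the messenger RNA: those of photosynthesis and photorespiration, of cytosolic translation, of water channels, metallothioneins and the cell surface. For such genes many reads stand behind each value, so that small relative differences can be measured that would be lost in the scatter of weak genes.

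The NDX gene itself (AT4G03090) stood at 5.08 and 4.96 FPKM in Col-0 compared with 0.98 and 1.00 FPKM in ndx1-4, the order its labels call for. Of 14 marker genes of seed material (storage and oil body proteins), 13 are in the table, and their summed level was 1147 and 1192 FPKM in Col-0 against 73.1 and 63.2 FPKM in ndx1-4. Of 11 root markers 2 were listed (CASP1 and IRT1, both higher in ndx1-4), and of 5 markers of green tissue only RCA was listed, with 2866 to 3150 FPKM, again higher in ndx1-4. The part of these markers in the values below was not tested, and fewer cells of a type and less RNA per cell cannot be told apart in whole seedlings.

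The members lay between 5.18% and 48.5% below their Col-0 means, with a median of 13.2%. As ratios of Col-0 to ndx1-4 this is a median of 1.15, with quartiles of 1.11 and 1.27, beside a median ratio of 1.14 over the listed genes. Under 10% lower were 27 members, under 20% lower were 82, at least 30% lower were 10, and at least 40% lower were 2. Their mean levels ran from 201 to 16004 FPKM with a median of 403 FPKM, and 20 exceeded 1000 FPKM. The 7 members with a ratio of at least 1.5 had means of 213 to 1856 FPKM, and the members above that level lay nearer to 1. In all 112 members both Col-0 libraries were above both ndx1-4 libraries. The same held for 1120 of the 1984 listed genes (56.5%), which are all of the listed genes with a lower mean in ndx1-4, so this separation sets the members apart from no other lower gene.

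**Figure D1:**
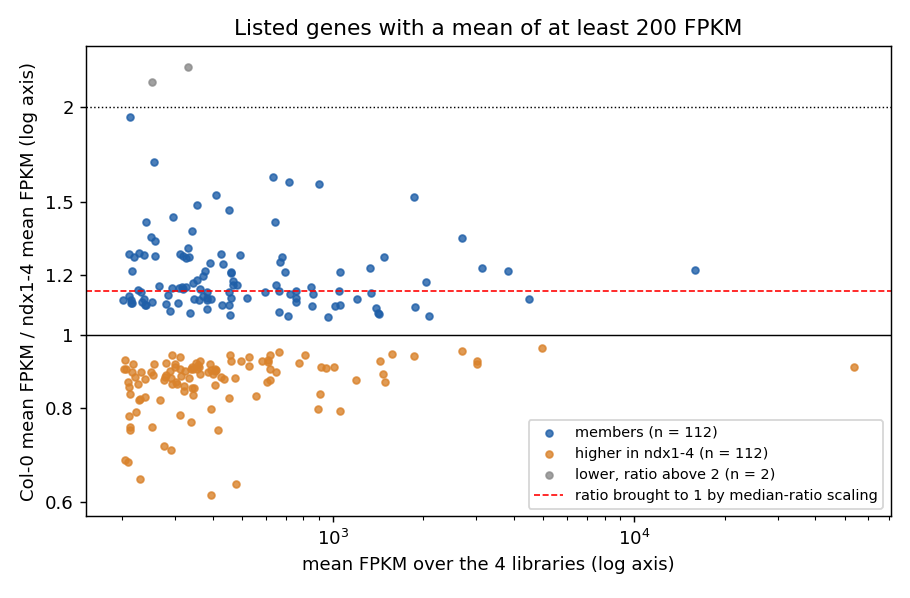
Each point is a listed gene whose mean reached 200 FPKM, plotted by its mean over the 4 libraries (FPKM, log axis) and its ratio of Col-0 mean to ndx1-4 mean (log axis). The 112 members lie between the solid line at 1 and the dotted line at 2, 112 genes lie below 1, and 49 members lie below the dashed line that median-ratio scaling would bring to 1. The gene AT1G64795, with a ratio of 0.005, is off the scale and not drawn.

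The libraries of a genotype differed by a median of 1.73% in Col-0 and 1.89% in ndx1-4 over the members, against 3.81% and 4.21% over all listed genes. In 110 members the gap between the lowest Col-0 and the highest ndx1-4 library was wider than either replicate difference, and the exceptions were AGP16 and AT5G11420. Over the listed genes 53.8% met this criterion, and 95.3% of the 1120 that were lower. The median log2 difference (ndx1-4 minus Col-0, log2(FPKM + 1) scale) was -0.20, with a standard error of 0.026 at the median gene. Being called from the same libraries favours genes with close replicates.

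**Figure D2:**
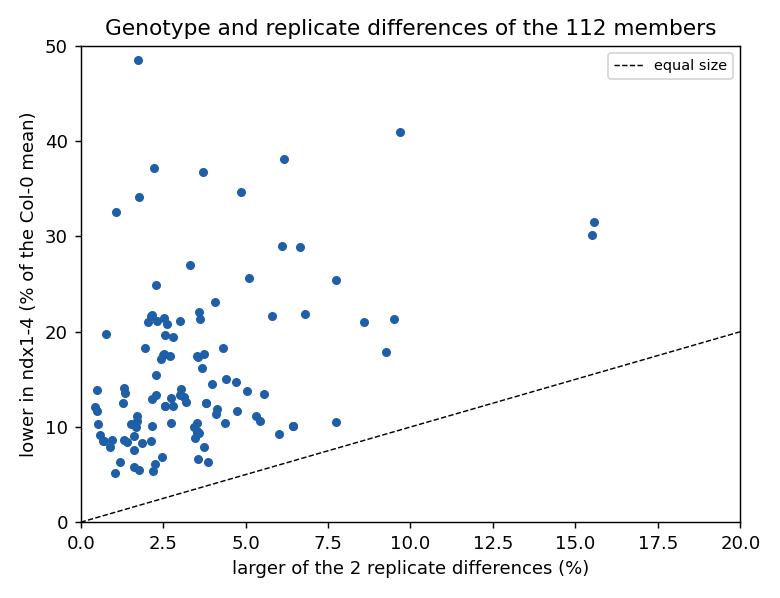
For each of the 112 members, the percentage by which the ndx1-4 mean lay below the Col-0 mean is plotted against the larger of the 2 differences between libraries of one genotype (%). All points lie above the dashed line of equal size, and the widest replicate differences, near 15.6%, belong to the 18S rRNA gene AT3G41768 and to CWLP.

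How far the members are lower depends on what the libraries are scaled to. With FPKM as deposited, the median listed gene was itself lower in ndx1-4. Scaling each library to the median ratio of the listed genes moved the median log2 difference by 0.19, which equals a ratio of 1.14 between the genotypes. Relative to that shift, 63 members stayed lower and 49 turned higher in ndx1-4. Members lower by 12.2% or less turned, and those lower by 12.5% or more did not. This scaling moves all genes by nearly the same factor, so that whether a member or class stayed lower restates whether its ratio exceeded 1.14 and adds no further support. All genes used for this scaling had been called, so which of the scales is nearer to equal RNA cannot be told from these values. With equal FPKM sums in every library, all 112 stayed lower, with a median ratio of 1.12.

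At the limits of the rule, AT1G19000 (201 FPKM), HA1 (211 FPKM) and MTO3 (212 FPKM) were just inside the minimum mean, while AT3G28940 (199.7 FPKM), AT3G22440 (198 FPKM) and LCR68 (196 FPKM) were just outside it. Nearest to a ratio of 1 were TGG1 (1.05), CA2 (1.06) and HPR (1.06) on the inner side, and LHCB5 (0.96), PSBW (0.95) and SHM1 (0.95) on the outer. Nearest to a ratio of 2 were ECS1 (1.94), AT2G05510 (1.69) and GER1 (1.62), with ANNAT1 (2.16) and LTP2 (2.26) beyond it.

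The 10 members with the largest ratios mixed cell surface, metabolic and transport proteins. ECS1, which encodes a small cell wall protein, stood at 278 and 283 FPKM in Col-0 compared with 145 and 144 FPKM in ndx1-4, 48.5% lower (log2 difference -0.95 ± 0.026, SE). The glycine-rich protein gene AT2G05510 was at 336 and 306 FPKM in Col-0 compared with 185 and 194 FPKM in ndx1-4, lower by 40.9% (-0.76 ± 0.046, SE). GER1, a germin-like protein of the extracellular space, was at 760.5 and 807 against 488 and 481 FPKM, lower by 38.2% (-0.69 ± 0.032, SE). In these 3 genes the distance between the genotypes was several times the distance between replicates. AILP1, annotated as an aluminium-induced protein with YGL and LRDR motifs, had 869.7 and 889 FPKM in Col-0 compared with 549.5 and 555 FPKM in ndx1-4, 37.2% less (-0.67 ± 0.024, SE). NIT1, a nitrilase that can release auxin from indole-3-acetonitrile, had 1127 and 1086 against 708 and 690.2 FPKM, 36.8% less (-0.66 ± 0.028, SE). DHAR1, which regenerates ascorbate from dehydroascorbate, had 485 and 509 against 317 and 332 FPKM, 34.7% less (-0.61 ± 0.034, SE). All of these remained lower after median-ratio scaling, AILP1 with a ratio of 1.39 and NIT1 with 1.39.

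The remaining members of that group were also separated in every library. AT2G45180, a protein of the lipid-transfer and seed albumin superfamily, was the most abundant of the group at 2255 and 2222 FPKM in Col-0 compared with 1487 and 1461 FPKM in ndx1-4, 34.2% lower (-0.60 ± 0.025, SE). STP1, the hexose-proton symporter of the plasma membrane, was at 422 and 424 against 284 and 287 FPKM, 32.5% lower (-0.57 ± 0.024, SE). The 18S ribosomal RNA gene AT3G41768 was at 500.4 and 578 FPKM in Col-0 compared with 369 and 369 FPKM in ndx1-4. How much ribosomal RNA each of these mRNA libraries held was not tested. The Col-0 libraries of this gene were the most unequal among the members, while its ndx1-4 libraries were nearly equal. CWLP, the cell wall to plasma membrane linker protein, had a like pattern at 374 and 324 against 245 and 243 FPKM, 30.2% lower (-0.51 ± 0.059, SE).

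**Figure D3:**
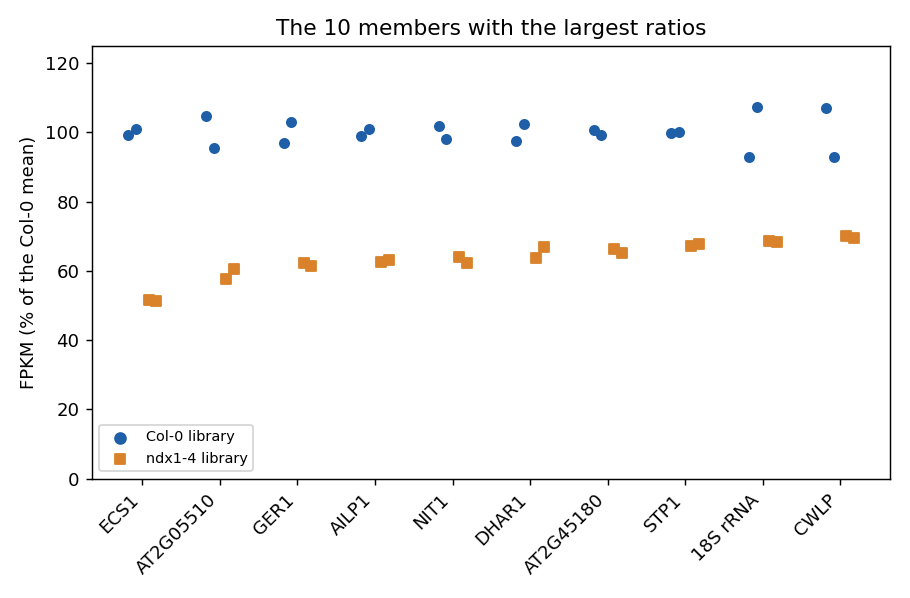
FPKM in each of the 4 libraries, as a percentage of the gene's Col-0 mean, for the 10 members with the largest ratios (circles, Col-0; squares, ndx1-4). The ndx1-4 libraries lie well below the Col-0 libraries in every gene, from ECS1, 48.5% lower, to CWLP, 30.2% lower.

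The most abundant member by far was AT2G01021, annotated as an uncharacterized protein of 102 coding bases at the top of chromosome 2. It stood at 18357 and 16802 FPKM in Col-0 compared with 14318 and 14539 FPKM in ndx1-4, lower by 17.9% (-0.28 ± 0.047, SE). Its coding sequence is GC-rich, at 65.7% against a median of 42.1% over the members, and begins 625 bases after the end of the 5.8S ribosomal RNA gene AT2G01020. The RefSeq sequence of the TAIR10.1 assembly, plus strand, is shown in full because this locus alone held more FPKM than any other member, and no motif is marked:
AT2G01021, chr2:6571-6672: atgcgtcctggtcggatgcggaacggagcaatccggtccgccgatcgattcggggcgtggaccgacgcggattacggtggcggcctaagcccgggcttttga
Such a short locus gives an FPKM that is large for its number of reads, so its rank is not a rank by reads. Whether the reads of AT2G01021 came from ribosomal RNA was not tested, and its level may not be that of a messenger RNA.

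Of the 6 members with the highest levels, 3 serve photosynthesis and carbon fixation, and the metallothionein MT2B and the non-coding RNA AT3G22121 rank among them. RBCS3B, a small subunit of Rubisco, the enzyme that fixes CO2, was at 4699 and 4738 FPKM in Col-0 compared with 4108 and 4372 FPKM in ndx1-4, 10.1% lower (-0.16 ± 0.035, SE). LHB1B1, a chlorophyll a/b-binding protein of the photosystem II antenna, was at 4155 and 4192 against 3394 and 3479.9 FPKM, 17.7% lower (-0.28 ± 0.027, SE). The other abundant antenna genes, LHCB5 and LHCB2.3, were 4.28% and 8.44% higher in ndx1-4. CA2, a carbonic anhydrase that interconverts CO2 and bicarbonate, had 2124 and 2171 against 2019 and 2044 FPKM, 5.40% lower (-0.080 ± 0.025, SE). Among these members LHB1B1 stayed lower relative to the median-ratio shift, with a ratio of 1.06, while RBCS3B (0.97) and CA2 (0.93) turned.

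The subunits of the photosystems were divided between the directions. PSAD-2 was at 1473 and 1458 FPKM in Col-0 compared with 1347 and 1399 FPKM in ndx1-4, and PSAG at 1477 and 1423 against 1359.8 and 1312 FPKM, lower by 6.33% and 7.85%. Both belong to photosystem I. PSAK of the same photosystem and PSBW of photosystem II were in contrast higher in ndx1-4, by 8.33% and 5.29%. With median-ratio scaling all 4 were higher in ndx1-4. The copper protein plastocyanin 1 (PETE1), which carries electrons to photosystem I, was 14.5% lower at 377 and 363 against 318 and 315 FPKM, and NdhO, a subunit of the chloroplast NAD(P)H dehydrogenase complex, 17.6% lower at 236 and 238 against 198 and 193 FPKM. PETE1 and NdhO kept their direction after scaling, and both were named after their values were seen. In the Calvin-Benson cycle, PGK1, the phosphoglycerate kinase, was at 472 and 465 against 441 and 443 FPKM, 5.75% lower, whereas RCA, CP12-1 and GAPB were higher in ndx1-4 by 9.41%, 10.8% and 6.32%.

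Photorespiration, which recycles the phosphoglycolate that Rubisco makes with oxygen, gave 5 members against 2 abundant genes that were higher. GOX1, glycolate oxidase, was at 1486 and 1453 FPKM in Col-0 compared with 1395 and 1366 FPKM in ndx1-4, 6.07% lower. AGT, the alanine:glyoxylate aminotransferase, was at 1103 and 1101 against 1013 and 1000.3 FPKM, 8.65% lower. CAT2, the leaf catalase that removes peroxide from glycolate oxidation, was at 770.0 and 767 against 680.4 and 677 FPKM, 11.7% lower. These peroxisomal enzymes differed by little and with close replicates. HPR, hydroxypyruvate reductase, was 5.47% lower at 728 and 731 against 696 and 684 FPKM, and GDCH, the H subunit of mitochondrial glycine decarboxylase, was 13.3% lower at 335 and 328 against 286 and 289 FPKM. GGT1 and SHM1, which act in the same route, were 6.03% and 5.45% higher in ndx1-4. Of the 5 members only GDCH stayed lower after median-ratio scaling. Of 16 annotated genes in this class 11 were listed, 6 lower and 5 higher, and over all listed genes 56.5% were lower.

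The chlorophyll synthesis class, taken by product name and symbol and so not a full list of the pathway, held 2 members and no abundant gene that was higher. PORB, which reduces protochlorophyllide in the light, was at 628 and 644 FPKM in Col-0 compared with 552 and 565 FPKM in ndx1-4, 12.2% lower. HEMA1, glutamyl-tRNA reductase at the entry to tetrapyrrole synthesis, was at 249 and 248 against 227 and 228 FPKM, 8.54% lower. Both turned higher after scaling, PORB barely, with a ratio of 0.9966. Among its abundant genes the glycolysis class likewise had members only, GAPC2 (10.6% lower), TPI (11.2% lower) and PGK1. The product of PGK1 also serves the Calvin-Benson cycle. GAPC2, the cytosolic glyceraldehyde-3-phosphate dehydrogenase, was at 793 and 806 against 716 and 713 FPKM, and TPI, triosephosphate isomerase, at 394 and 395 against 342 and 359.8 FPKM. All 3 turned after scaling. Of the listed genes, 6 of 7 in the glycolysis class and all 3 in the chlorophyll class were lower, beside 56.5% of all listed genes.

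**Figure D4:**
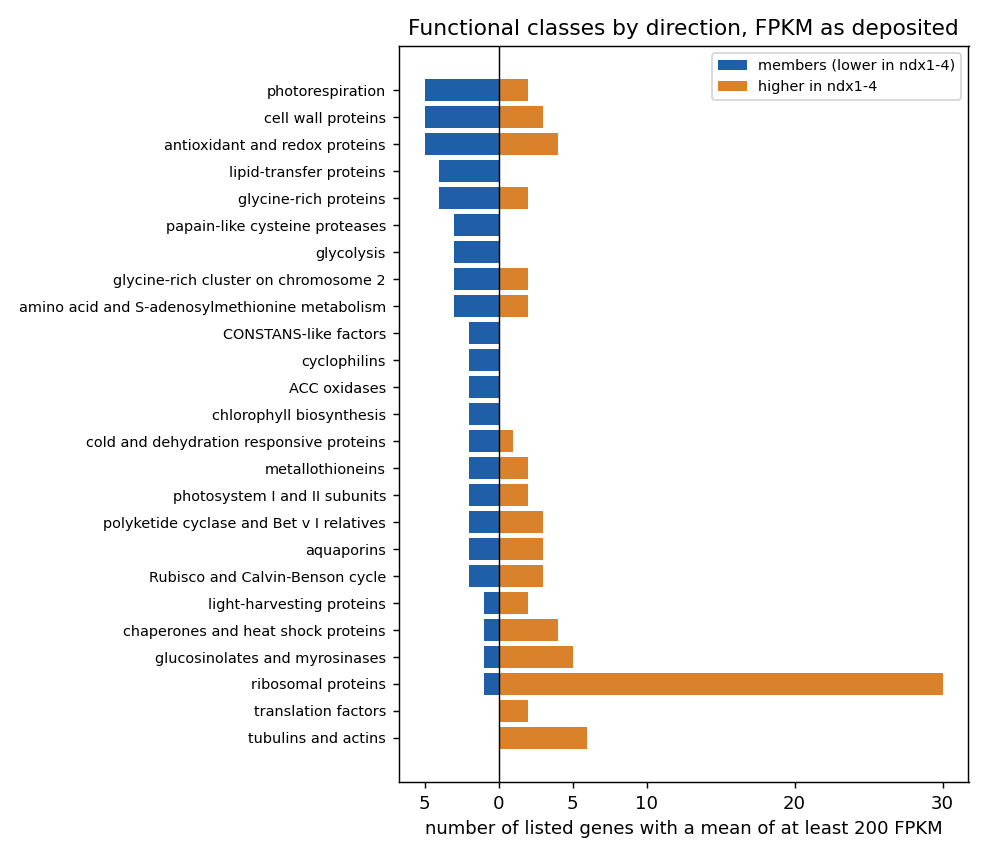
Number of listed genes whose mean reached 200 FPKM in each functional class, with members to the left of 0 and genes higher in ndx1-4 to the right, for classes with at least 2 such genes. Ribosomal proteins stood 1 to 30 and lipid-transfer proteins 4 to 0. After median-ratio scaling, no member of the photosystem, Rubisco, glycolysis, chlorophyll, glucosinolate, ribosomal or cysteine protease class was still lower, and in each other plotted class with members at least 1 was.

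SEN1, ASN1, CCL and the CONSTANS-like factors are given together here, a grouping made after the values were seen. SEN1, a rhodanese-like protein first found as a senescence and dark-inducible transcript, was at 2187 and 2226 FPKM in Col-0 compared with 1839 and 1925 FPKM in ndx1-4, 14.7% lower (-0.23 ± 0.030, SE). ASN1, the glutamine-dependent asparagine synthase that darkness also induces, was at 739 and 745 against 593 and 596 FPKM, 19.8% lower (-0.32 ± 0.023, SE). CCL, a CCR-like protein with a daily rhythm of its transcript, was at 1660.1 and 1648 against 1361 and 1253 FPKM, 20.98% lower (-0.34 ± 0.038, SE). Each of these stayed lower after median-ratio scaling, with ratios of 1.03, 1.09 and 1.11. The CONSTANS-like zinc finger factors COL5 and COL3 were also members, COL5 at 376 and 368 against 295 and 292 FPKM (21.1% lower) and COL3 at 309 and 296 against 273 and 263 FPKM (11.4% lower). COL3 turned after scaling and COL5 did not. By product name or symbol 7 annotated genes matched as CONSTANS-like, which need not be the whole family. All 4 of these that were listed were lower, beside 56.5% of all listed genes.

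Metallothioneins, small cysteine-rich proteins that bind copper and zinc, lay on both sides by type. MT2B was at 3419 and 3465 FPKM in Col-0 compared with 2838 and 2784 FPKM in ndx1-4, 18.3% lower (-0.29 ± 0.026, SE). MT2A was at 485 and 472 against 388 and 382 FPKM, 19.4% lower (-0.31 ± 0.026, SE). MT1A and MT1C were higher in ndx1-4, MT1A at 50817 and 51350.4 against 55446 and 57216 FPKM (10.3% higher) and MT1C at 376 and 364 against 582 and 586 FPKM (57.9% higher). Both type 2 members kept their direction after scaling, with ratios of 1.07 and 1.09. The family was picked out after its values were seen. CCH, a copper chaperone that was also named after its values were seen, was 17.3% lower at 764 and 757 against 618 and 640.0 FPKM.

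The upstream sequences of a few of these genes are shown so that they can be read beside the levels. Motif letters were searched on both strands: the I-box core GATAAG, found in promoters of light-regulated genes, the G-box CACGTG, bound by bZIP and bHLH factors, and the evening element AAAATATCT, known from clock-regulated genes. The evening element was also searched as the shorter core AGATATTT, which lies within its reverse complement, so that both are a single element at different lengths. Capitals mark the matches. Each stretch ends at the base before the annotated gene start (TAIR10.1, RefSeq) and is read 5′ to 3′ in the direction of the gene, and was kept short enough not to enter a neighbouring gene:
MT2B, chr5:507245-507494, minus strand: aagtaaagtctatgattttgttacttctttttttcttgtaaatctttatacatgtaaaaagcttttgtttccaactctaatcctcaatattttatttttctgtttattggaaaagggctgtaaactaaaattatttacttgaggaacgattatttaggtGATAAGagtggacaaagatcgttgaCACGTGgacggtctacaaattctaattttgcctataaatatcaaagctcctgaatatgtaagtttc
MT2A, chr3:2890575-2890824, minus strand: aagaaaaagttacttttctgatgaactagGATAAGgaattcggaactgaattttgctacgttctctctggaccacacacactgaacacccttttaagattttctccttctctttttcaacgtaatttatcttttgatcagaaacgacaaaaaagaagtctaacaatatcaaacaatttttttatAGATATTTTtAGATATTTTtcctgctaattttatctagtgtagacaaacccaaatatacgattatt
SEN1, chr4:16944678-16944877, plus strand: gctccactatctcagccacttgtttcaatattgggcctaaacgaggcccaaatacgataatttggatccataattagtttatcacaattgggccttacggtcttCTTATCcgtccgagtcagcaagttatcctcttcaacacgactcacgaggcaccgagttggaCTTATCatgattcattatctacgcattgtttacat
AILP1, chr5:6422903-6423152, plus strand: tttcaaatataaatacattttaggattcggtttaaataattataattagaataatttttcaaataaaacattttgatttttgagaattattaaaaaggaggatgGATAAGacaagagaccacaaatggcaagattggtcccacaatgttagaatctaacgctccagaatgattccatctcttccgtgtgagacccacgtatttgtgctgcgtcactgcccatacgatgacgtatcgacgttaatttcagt
CCL, chr3:9827552-9827681, plus strand: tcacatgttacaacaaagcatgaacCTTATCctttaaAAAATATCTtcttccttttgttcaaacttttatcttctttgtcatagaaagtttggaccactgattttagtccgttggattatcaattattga
PORB, chr4:13725366-13725545, plus strand: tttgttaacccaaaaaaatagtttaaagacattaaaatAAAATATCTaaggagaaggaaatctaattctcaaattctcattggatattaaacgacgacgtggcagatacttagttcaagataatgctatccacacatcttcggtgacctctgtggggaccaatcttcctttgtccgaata
MT2B holds an I-box 91 bases and a G-box 66 bases before the start, and MT2A an I-box at 221 bases and evening elements at 66 and 56 bases. SEN1 holds I-boxes at 96 and 35 bases, AILP1 one at 146 bases, and CCL one at 105 bases. CCL and PORB each hold an evening element, at 93 and 142 bases. A match is a run of letters and not a site of binding. Each promoter shown holds a match, so these genes are not typical of the members. In windows of 250 bases 20.4% of the protein-coding members held an I-box and 5.56% an evening element.

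Over the 108 protein-coding members, windows of 250 bases before the start held an I-box in 20.4%, against 18.02% of the 111 protein-coding abundant genes that were higher, 14.9% of the listed genes and 12.3% of 27443 annotated genes. A G-box was present in 12.04%, 7.21%, 8.33% and 6.49% of these sets, and the evening element in 5.56%, 3.60%, 2.66% and 2.36%. The shares for its shorter core were 7.41%, 6.31%, 5.21% and 4.79%. The site II element GGCCCA, known from promoters of ribosomal protein genes, was in 12.04% of members and 28.8% of the abundant genes that were higher, beside 12.5% of listed and 13.7% of annotated genes. The TATA box TATAAA was in 38.0% of members against 56.8% of the abundant higher genes, 48.6% of listed and 47.3% of annotated genes. The ABRE core ACGTG, which lies within the G-box, was in 33.3% of members and also in 33.3% of the abundant higher genes, with 28.6% of listed and 22.9% of annotated genes. In the same order of sets the shares were 11.1%, 3.60%, 9.36% and 9.55% for the heat shock element GAANNTTC, 3.70%, 4.50%, 3.07% and 4.49% for the telo-box AAACCCTA, and 6.48%, 4.50%, 8.23% and 5.46% for the phosphate response site GNATATNC. These windows can run into neighbouring genes, and no difference between sets was tested.

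Enzymes that handle reactive oxygen and thiols gave 5 members beside 4 abundant genes that were higher. Of the 48 listed genes of this class 22 were lower and 26 higher, while 56.5% of all listed genes were lower. FSD1, the chloroplast iron superoxide dismutase, was at 1950.4 and 1968 FPKM in Col-0 compared with 1796 and 1811 FPKM in ndx1-4, 7.94% lower (-0.12 ± 0.024, SE). TRX3, a cytosolic h-type thioredoxin, was at 758 and 756 against 604 and 592 FPKM, 21.1% lower (-0.34 ± 0.024, SE). PRXR1, a class III peroxidase, was 12.5% lower at 696 and 723 against 615 and 627 FPKM, and GSTF9, a glutathione S-transferase, 14.99% lower at 512 and 497 against 419.7 and 438 FPKM. TRX3, GSTF9 and, with a ratio of 1.0003, PRXR1 stayed lower after scaling, while FSD1 and CAT2 turned. Among the genes higher in ndx1-4 were GPX1 (15.7%), GSTU19 (8.34%) and the peroxidase AT2G37130 (55.2%). GLX1, a glyoxalase, and GME, the GDP-mannose epimerase of ascorbate synthesis, were 20.8% and 21.1% lower, and are named here after their values were seen.

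In the lipid-transfer class, whose products bind lipids and are mostly secreted, 4 genes were members and no abundant gene was higher. Besides AT2G45180 these were LP1 at 1469.8 and 1463 FPKM in Col-0 compared with 1174 and 1224 FPKM in ndx1-4 (18.2% lower), AT2G10940 at 887 and 936 against 782 and 795 FPKM (13.5% lower) and AT3G53980 at 274 and 300.0 against 219 and 233 FPKM (21.3% lower). All 4 stayed lower after scaling, and LTP2, outside the upper limit of the rule, was lower too. Of the 25 listed genes of this class 14 were lower and 11 higher, a share near the 56.5% of all listed genes.

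Cell wall proteins gave 5 members beside 3 abundant genes that were higher, and of the 53 listed genes of the class 29 were lower and 24 higher. After GER1 came ELP, an extensin-like protein, at 697 and 696 FPKM in Col-0 compared with 602 and 595 FPKM in ndx1-4, 14.1% lower. EXT3, an extensin needed to lay down the new wall in dividing cells, was at 409 and 399.5 against 352 and 375 FPKM, 10.1% lower. AGP16, an arabinogalactan protein, and AT2G27385, of the Ole e 1 and extensin family, were lower by 10.6% and 10.04%, with AGP16 at 396 and 409.6 against 347 and 374 FPKM and AT2G27385 at 373 and 386 against 344 and 339 FPKM. In AGP16 the ndx1-4 libraries differed from each other by 7.74%, more than the gap of 5.997% between the genotypes. GER1 and ELP stayed lower after scaling and the other 3 turned. EXPA1, AGP9 and AGP31 were higher in ndx1-4, by 15.03%, 21.7% and 19.9%.

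Glycine-rich proteins, repetitive proteins of which several sit in the cell wall, gave 4 members beside 2 abundant genes that were higher. Of the 14 listed genes of the class 10 were lower and 4 higher, while 56.5% of all listed genes were lower. GRP-3 was at 774 and 729.7 FPKM in Col-0 compared with 546 and 522 FPKM in ndx1-4, 29.00% lower (-0.49 ± 0.036, SE), and AT1G67870 at 294 and 279.7 against 212 and 214 FPKM, 25.7% lower (-0.43 ± 0.031, SE). GRP9 was lower by 9.38%, at 804 and 789 against 709 and 734 FPKM, and was the only one of the 4 members to turn after scaling. GRP9, AT2G05510 and GRP-3 lie in one cluster of glycine-rich genes on chromosome 2, noticed after the values were seen. Within that cluster GRP3S and AT2G05540 went the other way, GRP3S by 15.6% and AT2G05540 by 63.03%, with AT2G05540 at 302 and 296 FPKM in Col-0 compared with 485 and 491 FPKM in ndx1-4. Neighbouring genes of one cluster thus stood at opposite ends of the range.

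**Figure D5:**
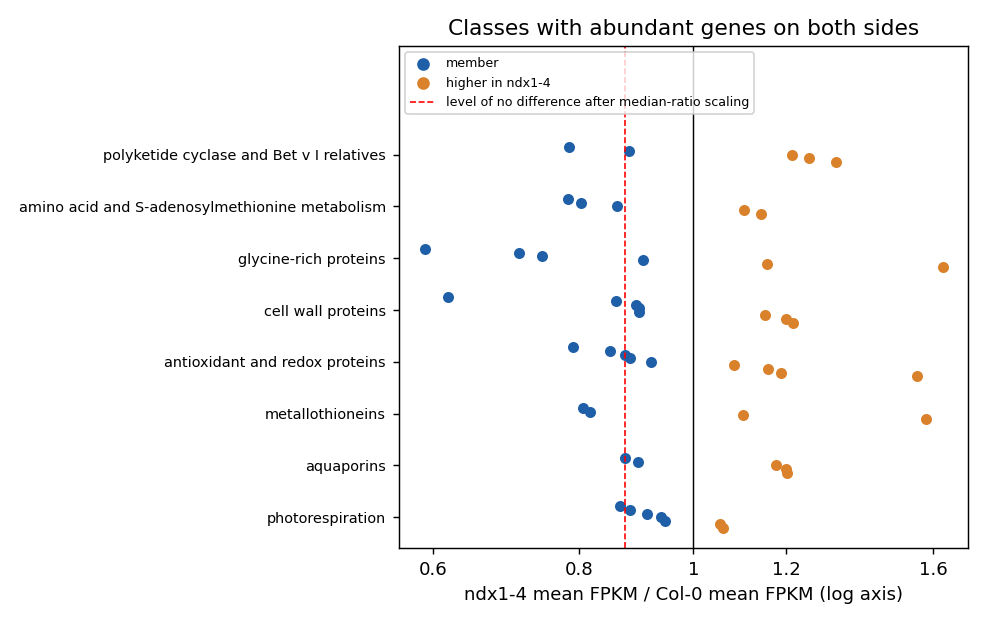
Ratio of ndx1-4 mean FPKM to Col-0 mean FPKM (log axis) of every member and every abundant higher gene in 8 classes that hold both. The dashed line marks where a gene would show no difference after median-ratio scaling, so members between it and the solid line at 1 turn higher under that scaling, among them 4 of the 5 photorespiration members.

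The aquaporins, channels for water across membranes, gave PIP1B and PIP3. Of the 7 listed genes of the class 3 were lower and 4 higher, while 56.5% of all listed genes were lower. PIP1B was at 1279 and 1270.0 FPKM in Col-0 compared with 1135 and 1152 FPKM in ndx1-4, 10.3% lower, and PIP3 at 1100.2 and 1142 against 975 and 986 FPKM, 12.5% lower. PIP2A, PIP2B and GAMMA-TIP were higher in ndx1-4 by 19.96%, 17.7% and 20.3%. After scaling PIP1B turned and PIP3 was almost level, with a ratio of 1.0011. The proton pump HA1 of the plasma membrane was 11.1% lower at 225 and 222 against 198 and 199 FPKM, and turned after scaling. AVP1, the pyrophosphate-driven pump of the vacuole, chosen after its values were seen, was 12.7% lower at 242 and 242 against 208 and 215 FPKM, and was close to level after scaling, with a ratio of 1.0024.

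In amino acid and S-adenosylmethionine metabolism the members were ASN1, CYSC1 and MTO3. CYSC1, a mitochondrial enzyme that uses cyanide and cysteine to form cyanoalanine, was at 518 and 515 FPKM in Col-0 compared with 444 and 445 FPKM in ndx1-4, 13.9% lower. MTO3, an S-adenosylmethionine synthetase, was at 229.7 and 245 against 185 and 186 FPKM, 21.8% lower. All 3 stayed lower after scaling. GS2, the chloroplast glutamine synthetase, was 10.5% higher in ndx1-4. EFE, an ethylene-forming enzyme that acts downstream of S-adenosylmethionine, was at 339.6 and 339 against 295 and 291 FPKM (13.5% lower), and was also lower after scaling. The class of EFE, and those of cyclophilins and cysteine proteases below, were set up after values had been seen.

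Among proteins that fold, cut or package others, the cyclophilins ROC5 and ROC1, prolyl isomerases, were lower by 8.56% and 16.2%, at 473 and 472 against 428 and 437 FPKM and 411 and 396 against 336 and 341 FPKM. The papain-like cysteine proteases AT4G11320, ALP and RD21A were lower by 10.4%, 8.54% and 12.2%. RD21A, a vacuolar protease linked to drought and senescence, was at 402 and 412 FPKM in Col-0 compared with 357 and 358 FPKM in ndx1-4. After scaling ROC1 stayed lower, whereas ROC5 and the 3 proteases turned. The stress-related genes ERD15 and COR413IM1 were at 897 and 884 against 812 and 819.6 FPKM (8.42% lower) and 252 and 261 against 198 and 202 FPKM (22.1% lower), of which COR413IM1, a cold-regulated protein of the chloroplast envelope, stayed lower after scaling. RCI2A, the third abundant gene of the cold and dehydration class, was 27.9% higher in ndx1-4, and of the listed genes of that class 9 were lower and 9 higher. Of 2 members with Bet v I-like domains, AT1G23130 was 21.6% lower and AT4G23670 11.8% lower, and only AT1G23130 stayed lower after scaling, while MLP34, MLP328 and MLP329 were higher in ndx1-4 by 25.4%, 21.4% and 32.4%. TGG1, the myrosinase that hydrolyses glucosinolates and is stored in guard cells and phloem idioblasts, had the smallest ratio, at 992 and 989 against 934 and 944 FPKM (5.18% lower), and turned after scaling. Its relative TGG2 was 11.9% higher.

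Ribosomal proteins were, with 1 exception, not among the members. Of 42 listed genes in the ribosomal class 37 were higher and 5 lower, and of the 31 abundant ones 30 were higher. The exception was EMB3113, the plastid ribosomal protein S5, at 289 and 299 FPKM in Col-0 compared with 264 and 272 FPKM in ndx1-4, 8.80% lower, which turned after scaling. The class was not split by compartment, so it gives no contrast of plastid with cytosolic ribosomal proteins. Tubulins and actins, proteins of the cytoskeleton, gave 6 abundant genes and translation factors 2, all higher in ndx1-4 and none a member. Of these translation factors, eEF-1Bb1 was also counted in the ribosomal class. All 112 abundant higher genes stayed higher after scaling, and in 43.5% of all listed genes the ndx1-4 mean, and likewise every ndx1-4 library, was the higher. Of 67 annotated phosphate starvation genes 23 were listed, all of them lower, beside 56.5% of all listed genes. None of these reached the minimum mean of 200 FPKM, so none could be a member whatever its change.

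Some values cannot be assigned to a single gene. The non-coding RNA AT3G22121 lies on the strand opposite to CWLP and shares 1372 bases with it, and both were members, AT3G22121 at 3150.3 and 3032 FPKM in Col-0 compared with 2218 and 2390.0 FPKM in ndx1-4, 25.5% lower (-0.42 ± 0.040, SE). Likewise AT3G03475, a non-coding RNA that shares 891 bases with MTO3 on the other strand, was at 381 and 366 against 293 and 281 FPKM, 23.2% lower. The library kit does not mark the strand, so reads from such partners cannot be told apart. In all, 24 members overlap an annotated gene on the opposite strand and 6 one on the same strand, most often one that is not listed. Shared bases are counted here over whole gene spans, introns included, and overlap between exons was not computed. Among members with a partner that is not listed, the longest overlap was that of AILP1 (2862 bases with AT5G19150), more than its spliced length of 1295 bases. Next came GER1 (931 bases), EXT3 (522 bases), PSAG (479 bases) and STP1 (438 bases). The levels of these genes are uncertain to the extent that the partner is transcribed and shares exon bases with them. A further non-coding member, GUT15, known as an unstable transcript, shares 81 bases with a gene on its own strand, and was at 436 and 435 against 354 and 346 FPKM, 19.7% lower (-0.32 ± 0.025, SE).

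Close protein copies were examined because 50-base reads can be shared between them. Of the 108 members with a protein, 14 have a paralog of at least 90% identity, and in 3 of them it was listed. The 14 are RBCS3B, LHB1B1, PSAD-2, GOX1, GDCH, PGK1, GAPC2, PIP1B, PIP3, HA1, ROC1, MTO3, NIT1 and AT4G40040, and their single-gene levels are uncertain where reads were split among copies. MTO3 was lower and SAM1 higher (271 and 272 FPKM in Col-0, 308 and 313 FPKM in ndx1-4, 14.3% higher), and the ratio of their sums was 1.03. NIT1 was lower and NIT2 higher (19.97 and 18.4 against 36.2 and 36.9 FPKM), and the ratio of sums was 1.53. The third is the histone H3 gene AT4G40040, at 676 and 700.5 against 634 and 652 FPKM (6.63% lower), whose relative AT1G13370 was higher at 0.120 and 0.220 against 3.0 and 3.93 FPKM, with a ratio of sums of 1.07. These sums cover the listed copies only, so that MAT3, another close copy of MTO3, is in none of them. The sum of MTO3 and SAM1 differed less between the genotypes than either gene did. More distant relatives, of 70 to 90% identity, included ASN2 (24.7% higher), GOX3 (53.6% higher) and TRX5 (29.3% higher) beside lower members, and PORA (35.2% lower) and GSTF10 (14.8% lower) in the same direction.

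In structure the members lay near the other listed genes. Their median spliced length was 1430 bases with 3 exons and 42.1% GC, against 1230 bases, 4 exons and 41.4% GC for the abundant genes that were higher and 1732 bases, 4 exons and 41.6% GC for all listed genes. By chromosome, 27 members (24.1%) lie on chromosome 2, which holds 16.6% of the listed genes and 15.2% of the abundant higher genes. There were 6 pairs of members within 10000 bases of each other: AT2G05510 and GRP-3, ATG8E and AT2G45180, MTO3 and AT3G03475, CWLP and AT3G22121, CAT2 and PIP3, and AT4G35750 and SEN1. ATG8E and AT2G45180 stand 396 bases apart on the same strand, with ATG8E at 292 and 278 FPKM in Col-0 compared with 248 and 243 FPKM in ndx1-4, 13.8% lower. AT4G35750, which encodes a SEC14-like protein, lies on the opposite strand to SEN1, at 402 and 389 against 287 and 291 FPKM, 27.02% lower.

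As a share of all reads, approximated as FPKM times spliced length, the members took 11.8% in each Col-0 library and 9.96% and 10.1% in the ndx1-4 libraries. The abundant higher genes took 8.63% and 8.65% in Col-0 compared with 9.65% and 9.72% in ndx1-4. In both sets the difference between genotypes was wider than that between replicates. Both follow from the rule by which the sets were drawn, and they show only how much of a library lies in these genes.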

How the data were processed

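Groups and replicate numbers came from the sample titles. Per the study's methods, the authors quantified reads with Salmon against Araport11 and tested with DESeq2. HISAT2 and deepTools are named in the submitters' processing notes, without versions. The authors' deposited table holds FPKM per library (digit separators removed here), a log2 fold change and an adjusted p-value, the latter columns not used. No source used here gives the seedlings' growth conditions or says whether libraries came from separate plantings. Depth per library is unknown.

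Members and gene lists were chosen with earlier results of these data known. All 1984 identifiers had the same TAIR10 coordinates in the RefSeq annotation of TAIR10.1, which gave symbols, products and sequences. Classes were taken by product name and symbol. Differences and standard errors came from limma 3.58.1 (R 4.3.3, variance trend) on log2(FPKM + 1) over all listed genes, tested on simulated data, and understate changes of low genes. Protein identity came from blastp (BLAST 2.17.0). Alternatives were other limits, scaling, pseudocount, filter, a replicate block, leaving out each library, and shorter promoter windows.

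Named members were the 10 highest in level, the 10 largest and 5 smallest ratios, up to 4 of each class with at least 2 members (all where it had at most 6), the 3 nearest each limit, and those with listed copies of at least 90% identity. Other names, among them PETE1, NdhO, CCH, EMB3113 and GUT15, were chosen after their values were seen, also where the paragraph does not say so. The table of transposable elements was not used. One gene that the rule names is not reported here.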

Additional observations from a re-analysis of the deposited data

How the results depend on the processing

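No test was made of the members, so the limits are those of the values. Read depth is unknown, 2 libraries per genotype give little measure of spread, and every listed gene had been called by the authors. The number of members was 217 with a minimum mean of 100 FPKM, 41 with a minimum of 500 FPKM, and 65 after median-ratio scaling, of which 63 were shared with the 112. It ranged from 110 to 117 without one library, and no member changed direction. The latter only restates that in all 112 members both Col-0 libraries were above both ndx1-4 libraries. The median log2 difference of -0.20 moved to -0.16 with equal FPKM sums and to -0.013 with median-ratio scaling, and ranged from -0.21 to -0.20 without one library, where the lone library of a genotype is assumed to vary like the other pair. With the replicate number as a block it was again -0.20, which is fixed in advance because each genotype holds every replicate number. Replicate deviations correlated by 0.024 over all listed genes and 0.090 over the members. Being taken over called genes, this cannot tell whether libraries of equal number were handled together. The block lowered the median standard error from 0.026 to 0.025. Another pseudocount (0.1), no variance trend and a minimum mean of 1 FPKM kept the direction of all 85 named members. Neither the trend nor the filter enters a gene's difference, and the pseudocount is small beside these levels. These settings could therefore not turn a member, and their outcome adds no support.

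After median-ratio scaling, 50 of the 112 members still had both Col-0 libraries above both ndx1-4 libraries, 34 had the reverse and 28 overlapped. Of 25 classes with members, 10 still had most of their members lower, which restates which ratios exceeded the 1.14 that this scaling removes. Of the 85 named members 49 stayed lower, and 36 turned. Their log2 differences (ndx1-4 minus Col-0) were then RD21A 0.00452, PORB 0.00501, AT4G23670 0.00967, CAT2 0.012, COL3 0.017, TPI 0.021, HA1 0.022, GAPC2 0.030, AGP16 0.030, AT4G11320 0.033, CPD 0.034, PIP1B 0.035, RBCS3B 0.037, EXT3 0.038, AT1G19000 0.038, AT2G27385 0.039, BGAL1 0.041, GRP9 0.050, AT5G11420 0.051, EMB3113 0.059, AGT 0.061, ROC5 0.063, HEMA1 0.063, ALP 0.063, ERD15 0.065, FSD1 0.073, PSAG 0.074, HMG1 0.077, CLA1 0.089, AT4G40040 0.093, PSAD-2 0.097, GOX1 0.10, PGK1 0.11, HPR 0.11, CA2 0.11 and TGG1 0.12.

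With windows of 100 bases, which hold fewer letters, the shares of members with a motif were 5.56% for the G-box, 9.26% for the I-box, 5.56% for site II, 19.4% for the TATA box, 2.78% for the evening element core and 20.4% for the ABRE core. The abundant genes that were higher then held a G-box in 5.41%, so the gap in G-box share between the sets at 250 bases was nearly absent at 100. Their other shares were 8.11%, 22.5%, 32.4%, 1.80% and 21.6% in the same order. For members, abundant higher genes and listed genes, the heat shock element had shares of 6.48%, 0.901% and 4.35% at 100 bases. The phosphate response site had 5.56%, 1.80% and 3.63%, and the full evening element 2.78%, 0% and 1.07%. The telo-box had 1.85%, 4.50% and 1.99%.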

Other observations

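Of the 112 members, 69 fell in none of the functional classes. The following were chosen for their known roles after their values had been seen. THI1, which makes the thiazole part of thiamine in the chloroplast, was at 1167 and 1144 FPKM in Col-0 compared with 971 and 938 FPKM in ndx1-4, 17.4% lower, and stayed lower after median-ratio scaling. ALDH11A3, a non-phosphorylating glyceraldehyde-3-phosphate dehydrogenase, was at 297 and 292 against 224 and 219 FPKM, 24.9% lower, likewise after scaling. The libraries of the 2 genotypes were well apart in both genes.

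Enzymes at the entry to both routes of isoprenoid synthesis were members with small differences, HMG1 of the cytosolic mevalonate route at 401 and 394 against 369 and 365 FPKM (7.62% lower) and CLA1 of the plastid route at 298 and 300.0 against 275 and 282 FPKM (6.85% lower). CPD, a cytochrome P450 of brassinosteroid synthesis, was 10.4% lower at 418 and 417 against 379 and 369 FPKM. All 3 turned higher in ndx1-4 after median-ratio scaling. Among wall-modifying glycosidases, BXL1, a beta-xylosidase, was at 264 and 265 against 211 and 205 FPKM, 21.5% lower, and BGAL1, a beta-galactosidase, at 227 and 223 against 202 and 203 FPKM, 9.95% lower, of which BXL1 stayed lower after that scaling and BGAL1 did not. No group had enough libraries for a check of single outlying samples.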
